A study of Mus musculus with 16 samples.

Results

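The globin genes and red cell genes described here are 9 members chosen by symbol: the embryonic globins Hbb-y, Hbb-bh1 and Hba-x, the adult globins Hba-a1, Hba-a2, Hbb-b1 and Hbb-b2, and the erythroid genes Alas2 and Slc4a1. All 9 stand among the 22869 gene symbols that were counted, and 2 of them, Hbb-y and Slc4a1, are among the 2283 genes listed in the authors' deposited table of comparisons. RNA was sequenced from whole pancreata of mouse embryos at embryonic day 15.5, on a mixed strain background. Control embryos gave 4 libraries, Pdx1LacZ/+ embryos (Pdx1 heterozygotes, with a lacZ allele at 1 Pdx1 copy) gave 4, Oc1+/- embryos (Oc1 heterozygotes) gave 3, and Pdx1LacZ/+;Oc1+/- embryos (double heterozygotes) gave 5. Oc1 is the factor encoded by Onecut1. The labels name no tissue-specific driver and do not say whether embryos were pooled or came from separate litters, and p-values here therefore speak only of the spread among these libraries.

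Haemoglobin is built from alpha-like and beta-like chains whose genes are switched during development. In the mouse, primitive red cells made in the yolk sac carry embryonic chains, encoded by Hba-x (zeta), Hbb-bh1 (beta H1) and Hbb-y (epsilon y). Definitive red cells, made in the fetal liver and later in the bone marrow, carry the adult chains encoded by Hba-a1, Hba-a2 and the adult beta genes. In a pancreas at this age, globin transcripts are generally those of the blood that the tissue holds. In such bulk RNA, fewer red cells and less globin RNA per cell cannot be told apart.

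The promoters are shown to set Hbb-y, the 1 globin gene with values in the comparison table, beside another embryonic globin and 3 adult globins that have none. Each line gives the 150 bases before the transcription start, read from the RefSeq promoter table of build GRCm38.p6, 5′ to 3′ on the strand of the gene. The counts were made on another build, mm9, per the submitters' processing notes, and the coordinates below are those of GRCm38.p6 only. Capitals mark 3 short motifs on either strand: CACCC, the box known to bind the erythroid factor KLF1, the CCAAT box, and GATAA, known to bind GATA1. No match to 1 motif overlaps a match to another in these windows.
Hbb-y, chr7:103853208-103853357, minus strand: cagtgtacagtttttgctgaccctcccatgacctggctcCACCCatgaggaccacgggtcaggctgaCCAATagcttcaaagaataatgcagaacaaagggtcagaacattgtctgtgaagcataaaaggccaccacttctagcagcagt
Hba-x, chr11:32276450-32276599, plus strand: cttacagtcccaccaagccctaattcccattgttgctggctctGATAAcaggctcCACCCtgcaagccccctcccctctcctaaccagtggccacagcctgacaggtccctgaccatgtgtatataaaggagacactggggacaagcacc
Hbb-bs, chr7:103827929-103828078, minus strand: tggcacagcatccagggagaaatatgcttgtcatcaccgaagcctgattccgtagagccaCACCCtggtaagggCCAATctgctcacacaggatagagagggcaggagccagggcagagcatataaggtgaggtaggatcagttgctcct
Hba-a1, chr11:32283522-32283671, plus strand: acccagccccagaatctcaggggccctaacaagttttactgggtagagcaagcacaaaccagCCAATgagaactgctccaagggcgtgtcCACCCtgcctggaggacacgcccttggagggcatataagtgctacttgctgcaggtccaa
Hbb-bt, chr7:103813924-103814073, minus strand: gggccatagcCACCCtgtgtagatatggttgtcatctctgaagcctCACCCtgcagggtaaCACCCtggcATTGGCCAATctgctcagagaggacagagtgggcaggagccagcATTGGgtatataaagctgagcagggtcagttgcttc

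The adult beta gene Hbb-bt holds 3 CACCC and 3 CCAAT matches, and the other 4 windows hold 1 CACCC match each. That match begins 111 bases before the start in Hbb-y, 95 in Hba-x, 90 in the adult beta gene Hbb-bs and 60 in the adult alpha gene Hba-a1. In Hbb-bt the CACCC matches begin 140, 104 and 89 bases before the start and the CCAAT matches 80, 75 and 36. A CCAAT match stands 83 bases before the start in Hbb-y, 76 in Hbb-bs and 88 in Hba-a1, and Hba-x holds a GATAA match at 107 instead. Such matches are common: of 32851 promoters in the same table, 37.4% hold CACCC in this window, 24.5% hold CCAAT and 13.3% hold GATAA. The adult beta genes need a remark on names. The transcript counted as Hbb-b1 is the one RefSeq now calls Hbb-bt, and Hbb-bs was counted under the name Beta-s, which is not listed in the comparison table either.

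The Oc1 heterozygotes stood apart in more than blood genes, and the values of the members are to be read beside that. Against control the authors' deposited table gives the acinar enzyme gene Cpb1 at 4.49 and the X-inactivation transcript Xist at -8.78 (FDR = 6.06e-10 and 0.00249), transcripts that mark exocrine cells and female cells. The part of either in the changes of the members was not tested. Alas2 is the 1 member on the X chromosome.

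Among the globins, Hbb-y was lower in the Oc1 heterozygotes than in each of the other 3 genotypes. In the authors' deposited table it fell by 2.26 on the log2 scale against control, 4.8-fold (FDR = 0.000495, where FDR is the p-value adjusted for all genes). Set relative to control at 100%, the fold changes of the authors' deposited table put Hbb-y at 92.9% in the double heterozygotes, 69.4% in the Pdx1 heterozygotes and 20.8% in the Oc1 heterozygotes. The first 3 genotypes in this order were not separated by the test and the Oc1 heterozygotes stood below them.

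Neither of the other mutant genotypes passed against control. The authors' deposited table gives Hbb-y at -0.53 in the Pdx1 heterozygotes (p = 0.251, FDR = 1) and at -0.11 in the double heterozygotes (p = 0.805, FDR = 1). Between the double and the Pdx1 heterozygotes the difference in Hbb-y was 0.42 once the sign in the authors' deposited table is turned (FDR = 1). Against the Oc1 heterozygotes, Pdx1 heterozygotes had more Hbb-y by 1.74, 3.33-fold, in the authors' deposited table (FDR = 0.013). The double heterozygotes, which carry the same Oc1 allele, also exceeded the Oc1 heterozygotes, by 2.16 ± 0.49 (SE derived from the deposited p-values; 95% interval 1.19 to 3.12; FDR = 0.000382, normal test). These comparisons share libraries: the fold changes against control share the control group, and 3 of the comparisons share the Oc1 group. The derived difference subtracts the -2.26 of the Oc1 heterozygotes against control, and Hbb-y was listed only through comparisons with the Oc1 heterozygotes. Its size and FDR are therefore not independent of the listing.

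Slc4a1 encodes band 3, the anion exchanger that anchors the red cell membrane to its skeleton. It was lower in the Oc1 heterozygotes than in control by 1.09 on the log2 scale, 2.12-fold, in the authors' deposited table (FDR = 0.0362). The authors' deposited table gives Slc4a1 at -0.45 in the Pdx1 heterozygotes (FDR = 1) and -0.36 in the double heterozygotes (FDR = 0.982), or 73.4% and 77.9% of control, against 47.1% in the Oc1 heterozygotes. Between the mutant genotypes Slc4a1 did not pass. The authors' deposited table puts it 0.64 higher in Pdx1 than in Oc1 heterozygotes (FDR = 0.333). The derived difference between double and Oc1 heterozygotes was 0.73 ± 0.36 (SE; 95% interval 0.01 to 1.44; FDR = 0.607, normal test). Whether the changes of Hbb-y and Slc4a1 differ from each other was not tested.

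The difference between carriers and non-carriers of the Oc1 allele was also compared between the 2 Pdx1 backgrounds. Hbb-y changed by -2.26 where Pdx1 was intact and stood at 0.42 where it was heterozygous. The derived interaction of 2.68 ± 0.69 (SE; 95% interval 1.34 to 4.03) passed (FDR = 0.00299, normal test). In either direction 1058 genes passed, 4.63% of all genes counted, but only 2265 listed genes had values to test. The -2.26 is a term of the interaction, and Hbb-y was listed through comparisons with the Oc1 heterozygotes. For Slc4a1 the interaction was 1.17 ± 0.51 and did not pass (FDR = 0.334). The same interaction stood at 8.64 for Xist and -4.76 for Cpb1 (FDR = 0.0282 and 7.75e-07, normal test). The change in the Oc1 heterozygotes is subtracted in it, so a large change there returns with its sign turned. The part of Xist and Cpb1 in the Hbb-y value was not tested. The Hbb-y interaction did not pass with the headings of 2 deposited comparisons exchanged (1.84, FDR = 0.149). That exchange would make the headings of 2 other comparisons right as printed, so the interaction is uncertain.

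**Figure D1:**
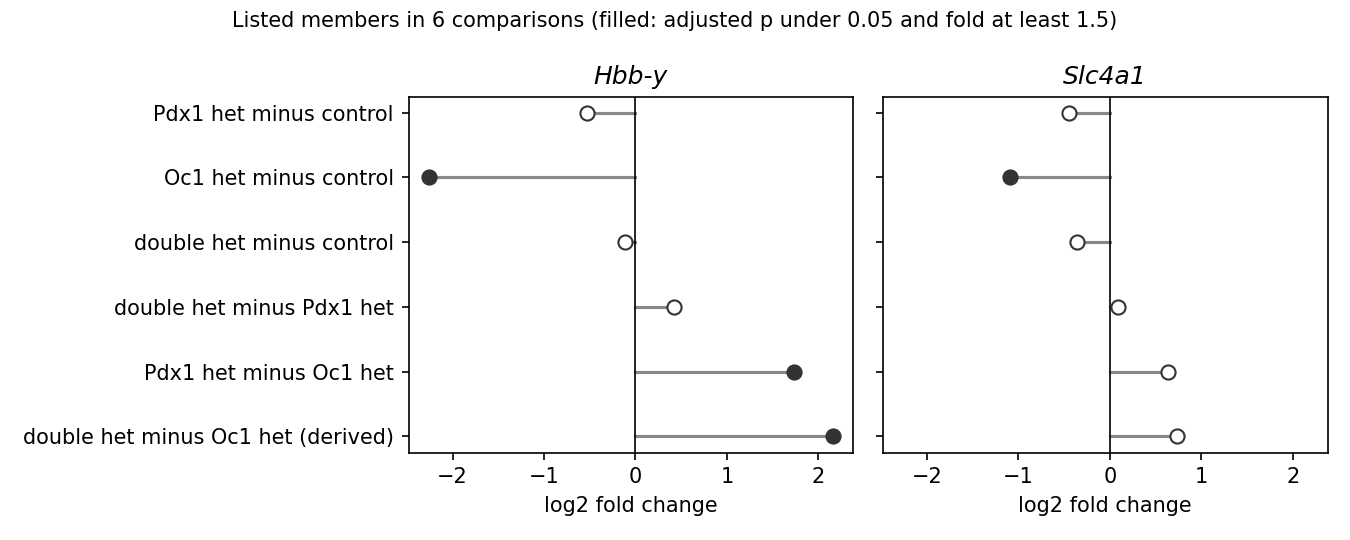
Log2 fold change (x axis) of Hbb-y and Slc4a1 in 6 comparisons between genotypes (y axis); points are the authors' deposited values, except the last comparison, which is derived, and filled points have adjusted p under 0.05 and a fold of at least 1.5. Hbb-y is filled in the 3 comparisons that include the Oc1 heterozygotes, from -2.26 to 2.16, and Slc4a1 is filled against control alone, at -1.09.

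Counted over the members, 2 of 9 were lower in the Oc1 heterozygotes than in control and none was higher. Both were listed only through comparisons with the Oc1 heterozygotes. The listing thus set a lower bound on their change there, and its size is not independent of the listing. The other 7 have no value. The call asks for a fold of at least 1.5 with an adjusted p under 0.05 by the edgeR test of the authors, and in this comparison 592 of 22869 genes (2.59%) were called lower and 836 (3.66%) higher. In the Pdx1 heterozygotes and in the double heterozygotes 0 of 9 members were called by the authors' edgeR test, and of the 2 listed members 0 had an unadjusted p under 0.05. The background was 0.249% of genes called in either direction in the Pdx1 heterozygotes and 0.743% in the double heterozygotes. Of the 9 members 1, Hbb-y, was called higher in Pdx1 than in Oc1 heterozygotes, where 2.2% of genes were. The same 1 was called higher in double than in Oc1 heterozygotes, where 2.09% of all genes counted were. Those 478 genes all come from the 2265 listed ones that had values to test. None was called between double and Pdx1 heterozygotes in the authors' edgeR test (0 at an unadjusted p under 0.05; background 0.861%). By fold, Hbb-y had rank 6 of 457 genes called lower in the Oc1 heterozygotes whose mean log2 CPM (counts scaled to library size) reached 1, counted from the lowest, and Slc4a1 had rank 83.

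**Figure D2:**
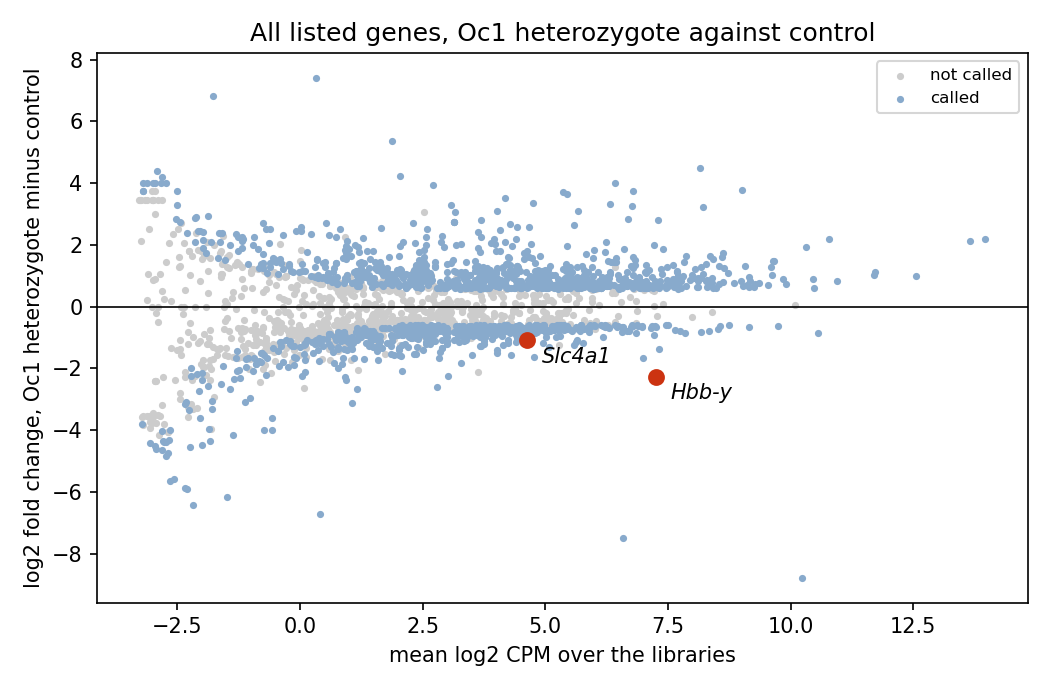
Log2 fold change of the Oc1 heterozygotes against control (y axis) against the mean log2 CPM over the libraries (x axis) for the 2283 listed genes, as deposited by the authors; blue points are called (adjusted p under 0.05 and a fold of at least 1.5), grey points are not, and red points are the 2 listed members. Hbb-y lies at -2.26 and a mean log2 CPM of 7.25, and Slc4a1 at -1.09 and 4.63; the median over all listed genes is 0.06.

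The adult globins can be set beside the embryonic ones only through the listing. Of the 3 embryonic globins 1 is listed, and of the 4 adult globins 0 are. Every listed gene reached both an adjusted p under 0.1 and a 1.5-fold change in at least 1 deposited comparison. A gene that is not listed was therefore taken not to have reached both in any of them, and its size of change is not known here. Hba-x, Hbb-bh1, the 4 adult globins and Alas2, the erythroid enzyme of the first step of heme synthesis, all belong to this group. No difference between embryonic and adult globins as classes was tested, since the adult globins have no value in the table and 2 of the 3 embryonic ones have none either.

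Sequence sharing bears on the adult genes more than on the embryonic ones. In GENCODE transcripts of GRCm38, 86.9% of the 50-base windows of Hba-a2 also occur in Hba-a1, and 67.5% of those of Hba-a1 occur in Hba-a2. Between the adult beta transcripts counted as Hbb-b1 and Beta-s, 58.3% and 65.8% of the windows are shared. By contrast, 0 of 584 windows of Hbb-y, 0 of 564 of Hbb-bh1 and 0 of 752 of Hba-x occur in any of the other 6 globin transcripts compared. The adult beta member Hbb-b2 was not among the 7 transcripts compared, so its sharing is not known here. How reads that match 2 adult genes were assigned is not given in the sources used here, so the counts of the adult pairs are uncertain, while those of Hbb-y do not share such windows.

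As levels, Hbb-y had a mean log2 CPM of 7.25 over all libraries, or 152 CPM, and Slc4a1 had 4.63, or 24.7 CPM, in the authors' deposited table. Divided by transcript length in GENCODE (633 and 4545 bases), these levels are 240.3 and 5.4 CPM per kilobase.

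Other red cell genes were taken from lists. Of 30 counted genes of the red cell membrane and red cell enzymes, 3 were called lower in the Oc1 heterozygotes than in control and 0 higher, where 2.59% of all genes were called lower and 3.66% higher. The list has 5 listed genes, which entered the table through comparisons with the Oc1 heterozygotes. The size of their change there had a lower bound from the listing and is not independent of it. The other 25 have no value. Epb4.2, which encodes the band 3 partner protein 4.2, fell by 0.86 (1.81-fold, FDR = 0.00157 in the authors' deposited table). Spnb1, erythroid beta spectrin of the skeleton under the membrane, fell by 0.66 (1.58-fold, FDR = 0.0331 in the authors' deposited table). Tmcc2 fell by 0.77 (FDR = 3.76e-06 in the authors' deposited table). The other two did not pass in the authors' deposited table: Add2, beta adducin, stood at -0.59 (FDR = 0.0696) and Trim10 at -0.98 (FDR = 0.0781).

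In the same list no gene was called in the Pdx1 or double heterozygotes by the authors' edgeR test, where 1 member each had an unadjusted p under 0.05. The 5 listed genes ranged from -0.40 to -0.16 in the Pdx1 heterozygotes and from -0.52 to -0.12 in the double heterozygotes in the authors' deposited table. Epb4.2 was at the lower end in both, at -0.40 and -0.52 (FDR = 0.859 and 0.234 in the authors' deposited table). Tmcc2 was the 1 gene of the list called higher in Pdx1 than in Oc1 heterozygotes (0.60, FDR = 0.000693 in the authors' deposited table).

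Of 17 counted genes of heme synthesis and iron uptake 3 are listed, and in the Oc1 heterozygotes 2 of the 17 were called higher and 1 lower, beside 3.66% and 2.59% of all genes. The 3 were listed through comparisons with the Oc1 heterozygotes, so the size of their change there had a lower bound from the listing and is not independent of it. The other 14 have no value. Tfrc, the transferrin receptor that brings iron into red cell precursors and many other cells, fell by 0.80 (1.74-fold, FDR = 1.79e-06 in the authors' deposited table). Cpox, coproporphyrinogen oxidase of the heme pathway, rose by 0.64 (1.56-fold, FDR = 0.000356 in the authors' deposited table). Abcb6, a porphyrin transporter, also rose by 0.64 (1.55-fold, FDR = 4.31e-06 in the authors' deposited table). Neither Cpox nor Tfrc nor Abcb6 is particular to red cells. In the Pdx1 and double heterozygotes these 3 genes stood between -0.02 and 0.18 in the authors' deposited table. Of 14 counted erythroid transcription factors and regulators, which include Gata1, Klf1 and Tal1, 0 are listed, and of 3 other counted globin genes 0 are.

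**Figure D3:**
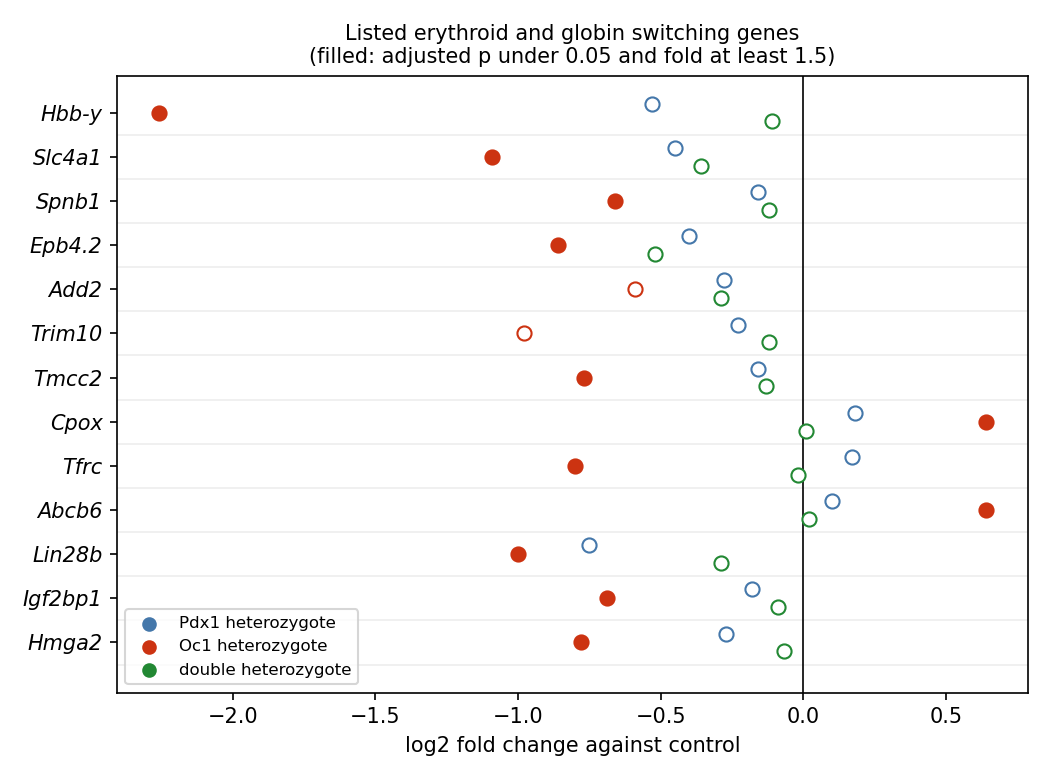
Log2 fold change against control (x axis) of the listed members and of the listed genes of 3 fixed lists (y axis) in Pdx1 (blue), Oc1 (red) and double (green) heterozygotes, as deposited by the authors; filled points have adjusted p under 0.05 and a fold of at least 1.5. Filled points occur for the Oc1 heterozygotes, from -2.26 for Hbb-y to 0.64 for Cpox and Abcb6, and none for the other genotypes.

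Of 11 counted regulators known for the switch from embryonic or fetal to adult globins, or for the fetal state of blood cells, 3 are listed. These 3 of the 11 were called lower in the Oc1 heterozygotes against control, where 2.59% of all genes were. They were listed through this comparison alone, so the size of their change there had a lower bound from the listing and is not independent of it. The other 8 have no value. Lin28b, an RNA-binding repressor of let-7 microRNAs that raises fetal globin in human red cells, was 2-fold lower (FDR = 0.00182 in the authors' deposited table). Hmga2, a chromatin protein and let-7 target, fell by 0.78 (FDR = 5.34e-08 in the authors' deposited table). Igf2bp1, an oncofetal RNA-binding protein, fell by 0.69 (FDR = 1.14e-05 in the authors' deposited table). Among Pdx1 heterozygotes none was called, but 2 of the 3 had an unadjusted p under 0.05: Lin28b stood at -0.75 (p = 0.00124, FDR = 0.168) and Hmga2 at -0.27 (p = 0.016, FDR = 0.614) in the authors' deposited table. In the double heterozygotes the 3 ranged from -0.29 to -0.07, and by the edgeR test of the authors 0 had p under 0.05 before adjustment. All 3 are expressed in many embryonic tissues, and the table does not say which cells of the pancreas the transcripts came from. The repressors Bcl11a and Sox6, which silence embryonic globin genes in definitive red cells, are counted and not listed.

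Markers of other cells that a pancreas dissection could hold were set beside Hbb-y. Of 22 counted fetal liver genes 14 are listed. In the double heterozygotes, where Hbb-y stood at -0.11, 7 of the 22 were called lower and 1 higher, beside 0.555% and 0.188% of all genes. The listed ones had a median of -1.55 and a range from -2.28 to 0.62. Most of them met the bounds of the listing in this comparison with control, so the size of their change there is not independent of the listing. The other 8 have no value. In the Pdx1 heterozygotes, where Hbb-y stood at -0.53, 0 of the 22 were called lower and 1 higher by the authors' edgeR test. Of all genes, 0.249% were called there in either direction. Of the 14 listed, 10 were lower at an unadjusted p under 0.05, with a median of -1.35 and a range from -2.05 to 0.75. In the Oc1 heterozygotes 1 of the 22 was called lower and 1 higher, beside 2.59% and 3.66% of all genes. The listed ones had a median of -0.75 there and a range from -1.23 to 0.94. Alb, the albumin gene, stood at -1.23 there (FDR = 0.209) and at -2.25 in the double heterozygotes (FDR = 0.00839) in the authors' deposited table. The list genes called in the Oc1 heterozygotes were Ambp, at -0.73, and Vtn, at 0.94 (FDR = 0.000361 and 3.06e-11 in the authors' deposited table). Their mean log2 CPM was 8.52 and 7.68, above that of Alb at 5.29. Vtn was also higher in the Pdx1 and double heterozygotes, at 0.75 and 0.62. Whether the Ambp and Vtn transcripts came from liver cells was not tested, so these 2 calls are not read as liver content. The liver genes called lower in the double heterozygotes were, besides Alb, Apoh, Fgg, Fga, Apoa1, Fgb and Trf, from -2.28 to -0.75 in the authors' deposited table. Apoh, at the lower end, Fgg and Fga were weakly detected, at a mean log2 CPM of -0.21, 0.29 and 0.91, so their changes are less certain. F2, prothrombin, was called in another comparison, lower in Pdx1 than in Oc1 heterozygotes (-1.14, FDR = 0.0141 in the authors' deposited table).

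Of 17 counted macrophage genes 2 are listed, and they moved in opposite directions in the Oc1 heterozygotes. C1qa, a chain of complement C1q, rose by 1.85 and Timd4, a receptor of resident macrophages for dying cells, fell by 2.32 (FDR = 1.43e-14 and 0.0153 in the authors' deposited table). Timd4 was hardly detected, at a mean log2 CPM of -1.23, where C1qa had 5.99, so its change is the less certain. Both were listed through comparisons with the Oc1 heterozygotes. Of 10 counted platelet and megakaryocyte genes 1 is listed, Gp5, at 1.13 (FDR = 0.0943 in the authors' deposited table), and of 10 endothelial genes 0 are. Gp5 was also hardly detected, at a mean log2 CPM of -0.53. The part of these cells in the decrease of Hbb-y was not tested. Summed marker levels per genotype were not analysed here.

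The genes most like Hbb-y were found by the Euclidean distance over the 3 log2 fold changes against control, among 1609 listed genes whose mean log2 CPM reached 1. The nearest was Cxcl13, a chemokine for B cells, at a distance of 0.52, with -1.83 in the Oc1 heterozygotes (FDR = 0.000724 in the authors' deposited table). Ngp and Ltf, proteins of neutrophil granules, followed at 0.53 and 0.56. They stood at -2.06 and -1.73 in the Oc1 heterozygotes but did not pass (FDR = 0.0674 and 0.0871 in the authors' deposited table). Gja6, a connexin, and A530016L24Rik came next at 0.68 each, with -1.66 and -2.09 (FDR = 2.16e-06 and 0.013 in the authors' deposited table). Slc4a1 lay at a distance of 1.21 from Hbb-y. Ngp, Ltf and Gja6 had a mean log2 CPM of 1.18, 1.05 and 1.10, just above the cut of 1, where Hbb-y had 7.25. Cxcl13 and A530016L24Rik had 3.27 and 2.07. The likeness rests on 3 values per gene that share the control libraries and are less certain at low levels. It is given as a description.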

How the data were processed

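Libraries were made with a TruSeq RNA kit from Trizol-preserved pancreata, per the labels' protocols. CASAVA 1.8.2, edgeR and build mm9 are named in the submitters' processing notes; aligner and edgeR version are not given in the sources used here. In the table of counts, 16 columns bear names of flow cells, lanes and indexes that match no sample label. These were not used, so depth, values per library and refits were not analysed here, and only gene symbols and accessions were read. The members and lists were chosen with earlier results of these data known.

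All fold changes come from the authors' deposited table, in 5 comparisons. Per the file headers, each gives logFC, logCPM, p-value and FDR. They were read as log2 values deposited by the authors, since a natural logarithm would put the highest mean, 13.97, above the maximum of CPM. In 12 rows a comparison is empty, and in 8 of these values were moved back 1 column. By subtraction of the others, the fourth comparison is Pdx1 less double heterozygote (2275 of 2275 rows) and the fifth is Pdx1 less Oc1 heterozygote (2279 of 2279; tolerance 1e-06), although their headings name the double heterozygote first; both were used by the arithmetic. Exchanging the headings of the first and the third comparison would give the same arithmetic. It would also make the headings of the fourth and the fifth right as printed, which speaks for the exchange. All values given for the Pdx1 and the double heterozygotes depend on this choice. The headings were kept because the median variance of each comparison relative to the first (1.15, 0.905, 0.897 and 1.14 for the second to the fifth) lay nearer to that of the group sizes as headed (1.17, 0.9, 0.9 and 1.17) than as exchanged (1.3, 1.11, 1 and 1.19).

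Double minus Oc1 heterozygote and the interaction were derived: fold changes were subtracted, variances were taken from the deposited p-values below 0.9, scaled by group size, and two-sided normal p-values were Benjamini-Hochberg adjusted for 22869 genes, counting unlisted ones as 1 (2265 tested). A gene was called at an adjusted p under 0.05 and a fold of at least 1.5. Named were the listed members, list genes called in any comparison or leading their list, and the 5 nearest to Hbb-y; Add2, Trim10, Bcl11a, Sox6, Gata1, Klf1, Tal1, Cpb1 and Xist were named in addition, after the values were seen. Python 3.11.15, pandas 2.3.3, scipy 1.17.1 and matplotlib 3.10.9 were used.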

Additional observations from a re-analysis of the deposited data

Results flagged for a closer look

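The difference in Hbb-y between carriers and non-carriers of the Oc1 allele itself differed between the Pdx1 genotypes, in a test added after the data were seen. With 2 intact Pdx1 copies the change was -2.26 (Oc1 heterozygote minus control, authors' deposited table), and with 1 copy it was 0.42 (double minus Pdx1 heterozygote). The interaction was 2.68 on the log2 scale (SE 0.69, 95% interval 1.34 to 4.03; adjusted p = 0.00299, normal test with the derived variance). That test called 1058 genes, 4.63% of all genes counted, but only 2265 listed genes had values to test. With the headings of Pdx1 and double heterozygote against control exchanged it was 1.84 and did not pass (adjusted p = 0.149). For Slc4a1 the interaction was 1.17 and did not pass (adjusted p = 0.334). The interaction was 8.64 for Xist and -4.76 for Cpb1 (adjusted p = 0.0282 and 7.75e-07, normal test), which set the Oc1 libraries apart, and their part in the Hbb-y value was not tested.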

How the results depend on the processing

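The number of members called stayed within 1.5 times of its value under 38 alternatives and moved under 4, over 6 comparisons and the interaction. At an adjusted p threshold of 0.01 the members lower in the Oc1 heterozygotes went from 2 to 1, with Slc4a1 lost, and those higher in Pdx1 than in Oc1 heterozygotes from 1 to 0, with Hbb-y lost (adjusted p = 0.013). For the interaction the count was 2 with adjustment over the listed genes alone, where Slc4a1 was added. The listed genes were chosen by their changes in these same comparisons, so the added call is not independent of the listing. With the headings of Pdx1 and double heterozygote against control exchanged the count was 0; that alternative was chosen after seeing the data. Exchanging the headings left the comparison of Oc1 heterozygotes with control as it is and kept the other 5 counts. Under it Hbb-y was 2.16 higher in Pdx1 and 1.74 higher in double than in Oc1 heterozygotes (adjusted p = 0.000907 and 0.013). The decrease of Hbb-y against control passed under each threshold tried. No paired analysis was possible because the deposited comparisons carry no replicate numbers. Leaving out each library, another normalization and no filter on low counts were not run, since the count columns are not tied to samples. How depth limits the 7 members that are not listed is unknown here.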
